A study of Sus scrofa with 14 samples.

Results

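The immediate early response genes were taken by symbol as 10 genes: *FOS*, *FOSB*, *JUN*, *JUNB*, *EGR1*, *EGR2*, *EGR3*, *ATF3*, *IER2* and *NR4A1*. Of these 10, 8 had a row in the tables of estimated counts and TPM (transcript abundance scaled to a common library total by kallisto), which hold 21280 genes, whereas *JUN* and *IER2* were not analysed here at the level of RNA. The RNA came from fat of adult female pigs of 2 years, either wild boars (WB) that were caught young and then kept in captivity or Bama pigs (BM) of a line without long inbreeding. All pigs lived on 1 farm in single pens under the same feeding and were slaughtered fasted, so these conditions were common to every group. Of each pig, the greater omentum (GOM, visceral fat) and the upper layer of backfat (ULB, subcutaneous fat) were sampled. The libraries used here are 2 of WB GOM, 2 of WB ULB, 2 of BM GOM and 1 of BM ULB (replicate 2). The paper took 1 further BM ULB library from an earlier study, which is not among them. Each library is whole tissue of 1 pig and 1 depot, and fewer cells of a type and less RNA per cell cannot be told apart in it.

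Immediate early genes are transcribed within minutes of a stimulus, from proteins already present in the cell and without new protein synthesis, and their short-lived mRNAs are lost again soon after. Growth factors, stretch, injury, stress and nerve signals act on them through MAP kinases, serum response factor (SRF) with its partners, and CREB. FOS, FOSB, JUN and JUNB pair up to form the transcription factor AP-1, EGR1, EGR2 and EGR3 are zinc finger factors, ATF3 is a stress-induced bZIP factor, NR4A1 is an orphan nuclear receptor, and IER2 is a small nuclear protein. In fat tissue, these genes are known to respond to cutting and digestion of the tissue as well as to adrenergic and feeding signals.

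The sites through which SRF acts, called CArG boxes (CC, then a run of A or T only, then GG), were searched around the annotated starts because they are the best known shared element of these genes. Within 1000 bases before and 1000 bases after the start in RefSeq Sscrofa11.1, 6 of the 10 genes held a box, against 9.76% of 19496 genes, and 5 of these 6 were among the 8 genes with RNA values. *EGR1* held 5 boxes, while 0.6% of all genes held 2 or more. In a narrower window of 450 bases before and 50 after the start, only *IER2* held a box, where 2.71% of all genes did. The wider window was chosen after this was seen. The boxes are printed with their neighbouring bases, 5′ to 3′ on the strand of the gene, with the box in capitals. Those of *FOS*, *EGR3*, *IER2* and *NR4A1* lie before the annotated gene, and those of *FOSB* and *EGR1* lie in an annotated exon.
FOS, chr7:98449042-98449071, plus strand: cacaggatgtCCATATTAGGacatctgcgt
FOSB, chr6:51837436-51837465, plus strand: gcgccgagctCCTTATATGGctaattgcgt
EGR1, chr2:140440976-140441005, plus strand: cccggaaacgCCATATAAGGagcaggaagg
EGR1, chr2:140441014-140441043, plus strand: ccggaaccacCCTTATTTGGgcagcgcctt
EGR1, chr2:140441030-140441059, plus strand: ttgggcagcgCCTTATTTGGagcgccccga
EGR1, chr2:140441298-140441327, plus strand: gccggtcttgCCATATTAGGgcttcctgct
EGR1, chr2:140441320-140441349, plus strand: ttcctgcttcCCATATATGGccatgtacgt
EGR3, chr14:6948941-6948970, minus strand: ctttgtctgtCCATATATGGgcagctacgt
IER2, chr2:65912681-65912710, minus strand: gggttcctgtCCTTATATGGgcagccggaa
NR4A1, chr5:17402249-17402278, plus strand: cagcacgtggCCTTTAAAGGtctggagtca
The same box, CCATATTAGG, stands in *FOS* and in *EGR1*, CCTTATATGG stands in *FOSB* and *IER2*, and CCATATATGG stands in *EGR1* and *EGR3*. A match is only a match of letters, since binding was not measured.

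Other elements were less particular to these genes in the wider window, on both strands. The short CREB motif TGACG was found in 7 of 10 against 69.7% of all genes, and the full palindrome TGACGTCA, which contains it, in 0 of 10 against 4.07%. The AP-1 site TGACTCA was found only in *JUNB*, against 22.0% of all genes, with 3 matches. The EGR site GCGGGGGCG was found in *JUN*, *JUNB* and *EGR1*, which is 3 of 10 against 17.0%. TATAAA was found in 4 of 10 (*FOS*, *FOSB*, *JUNB* and *ATF3*) against 52.7%.

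The 7 libraries held between 10833153 and 18627076 estimated counts. The TPM of all listed genes summed to between 774260 and 956616 in a library, and over 16615 genes the median log2(TPM + 1) was 0.41 lower in WB GOM than in BM GOM, a difference of 0.01 on log2 CPM (counts relative to the library total) after TMM normalization. Over all libraries, the median was 0.24 lower in WB on TPM and 0.04 lower after TMM. Levels and co-variation are given in TPM, which carries these shifts, folds between replicates in CPM before TMM, and the tests were run on counts normalized with TMM. The adipocyte markers summed to between 9002 and 16802 TPM in every library, and the mesothelial markers *WT1* and *UPK1B* to between 72.7 and 177 TPM in GOM against 0.1 to 1.1 TPM in ULB, as the labels say. The summed red cell markers ran from 173 to 12580 TPM and were at least 1965 TPM in the 4 WB libraries and at most 1427 TPM in the 3 BM libraries. The liver markers summed to 1275 TPM in BM GOM replicate 2 and to at most 492 TPM elsewhere, and the skeletal muscle markers to 193 TPM in WB ULB replicate 1 and at most 5.7 TPM elsewhere.

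*FOS* (ENSSSCG00000002383, chr7:98449508-98451971) was the most abundant of the 8 genes in 6 of the 7 libraries. It reached 90.1 and 319.6 TPM in WB GOM, 509.7 and 239 TPM in WB ULB, 259 and 43.0 TPM in BM GOM and 93.4 TPM in BM ULB. The highest level was 11.9 times the lowest, and both breeds and both depots held high and low libraries. The mean was 205 ± 162 TPM (SD, n = 2) in WB GOM, 374 ± 192 TPM (SD, n = 2) in WB ULB and 151 ± 153 TPM (SD, n = 2) in BM GOM. The SD was 79.2%, 51.2% and 101.2% of these means.

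*FOSB* (ENSSSCG00000031616, chr6:51836780-51844531) had the widest range among the genes detected in every library. Its TPM was 6.14 and 18.0 in WB GOM, 122 and 23.7 in WB ULB, 11.5 and 3.98 in BM GOM and 51.4 in BM ULB. All 3 ULB libraries were above all 4 GOM libraries in TPM, which held for 2.68% of all genes, and the highest library was 30.7 times the lowest. On CPM after TMM, however, WB GOM replicate 2 (40.7) and WB ULB replicate 2 (39.3) changed places, so that the depots overlapped.

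*JUNB* (ENSSSCG00000013735, chr2:66214086-66219435), an AP-1 partner that often restrains JUN, followed breed. It was measured at 67.9 and 96.8 TPM in WB GOM, 200.1 and 139 TPM in WB ULB, 67.2 and 50.7 TPM in BM GOM and 32.05 TPM in BM ULB. All 4 WB libraries were above all 3 BM libraries, narrowly in TPM (as for 1.06% of all genes) and more widely on CPM after TMM (4.96%), where WB ranged from 51.7 to 148 and BM from 24.1 to 35.0. The group means were 82.4 ± 20.4 TPM (SD, n = 2) in WB GOM, 169 ± 43.4 TPM (SD, n = 2) in WB ULB and 58.9 ± 11.7 TPM (SD, n = 2) in BM GOM.

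*EGR1* (ENSSSCG00000014336, chr2:140440829-140445302), the best known sensor of growth signals in this family, showed the extremes in a single group. The TPM was 10.4 and 34.7 in WB GOM, 83.7 and 72.0 in WB ULB, 159 and 5.485 in BM GOM and 87.2 in BM ULB. The highest and the lowest library were both BM GOM and lay 28.9-fold apart, while the 3 ULB libraries lay close together.

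*EGR2* (ENSSSCG00000010224, chr14:66280665-66291308), known from myelination and from early adipocyte differentiation, was low throughout. It had 1.92 and 1.09 TPM in WB GOM, 6.32 and 4.45 TPM in WB ULB, 6.11 and 1.345 TPM in BM GOM and 3.99 TPM in BM ULB. *EGR3* (ENSSSCG00000009630, chr14:6943184-6948507) was lower still in WB, with 0.275 and 0.368 TPM in GOM and 1.245 and 1.66 TPM in ULB. In BM, *EGR3* stood at 6.02 and 0 TPM in GOM and at 7.05 TPM in ULB. The *EGR3* values rest on 4, 6, 16 and 21 counts in WB and on 78, 0 and 76 counts in BM, so only the BM values above 0 are well counted. A count of 0 allows up to 3 counts, which is 0.210 CPM in that library.

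*ATF3* (ENSSSCG00000015595, chr9:130772259-130829678) varied least of all. It was found at 19.6 and 12.013 TPM in WB GOM, 32.9 and 19.4 TPM in WB ULB, 23.3 and 9.35 TPM in BM GOM and 12.9 TPM in BM ULB, a range of 3.52-fold with overlapping groups. *NR4A1* (ENSSSCG00000031321, chr5:17403088-17407918), which RefSeq annotates as a pseudogene in this assembly, had 20.1 and 5.68 TPM in WB GOM and 20.4 and 13.5 TPM in WB ULB. In BM it had 21.7 and 1.67 TPM in GOM and 31.0 TPM in ULB. Its range was 18.6-fold, with the highest and lowest library both in BM.

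**Figure D1:**
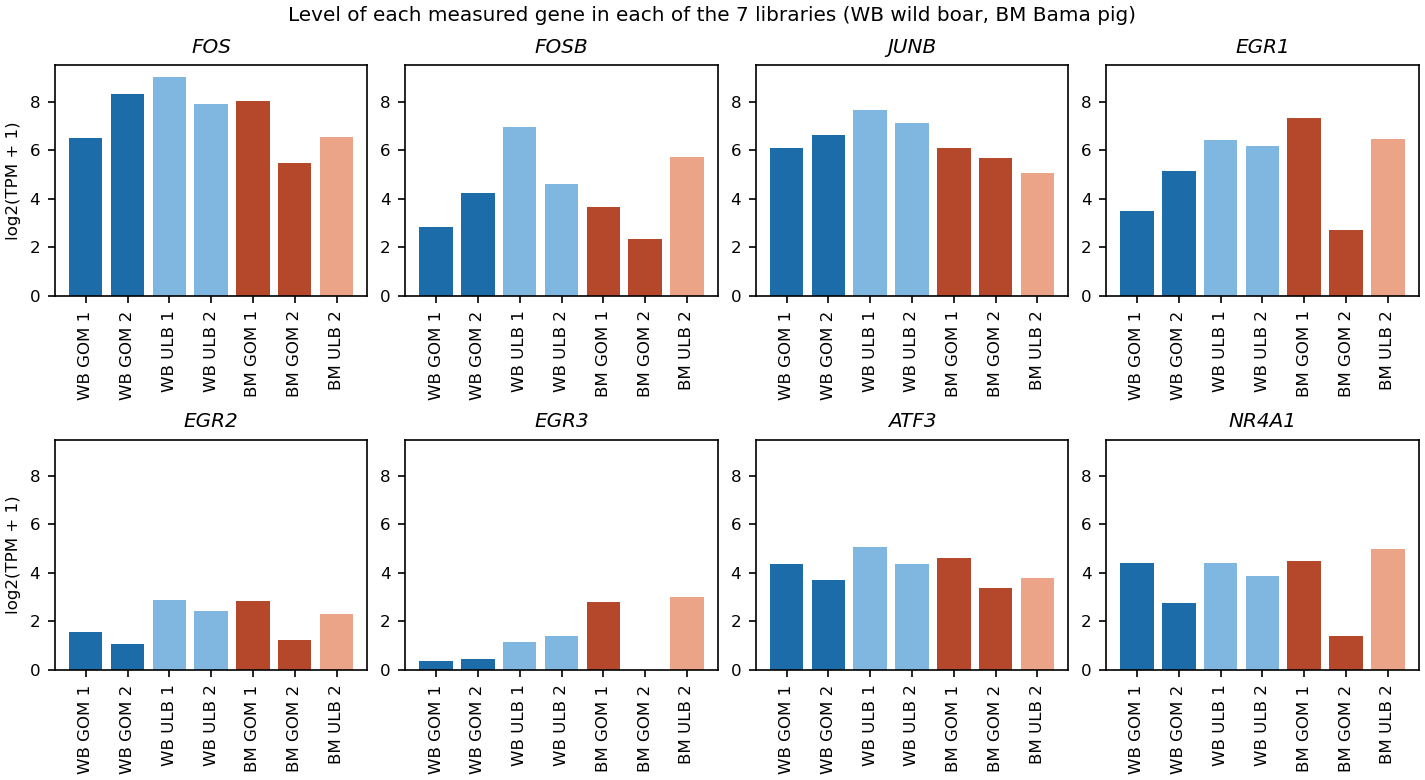
Level of each of the 8 measured genes, as log2(TPM + 1) on the vertical axis, in each of the 7 libraries on the horizontal axis (WB, wild boar; BM, Bama pig; the last digit is the replicate). Each bar is 1 library, so there are no error bars; BM GOM replicate 2 has the shortest bar for 6 of the 8 genes, and WB ULB replicate 1 the tallest for 5.

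Read by library, BM GOM replicate 2 stood at the bottom. It was the lowest of 7 for 6 of the 8 genes and among the 2 lowest for 8 of 8, and its 8 genes summed to 115 TPM. WB ULB replicate 1 was highest for 5 genes (*FOS*, *FOSB*, *JUNB*, *EGR2* and *ATF3*), with a sum of 977 TPM. BM ULB replicate 2 was highest for *EGR3* and *NR4A1* and at the same time lowest for *JUNB*, and BM GOM replicate 1 was highest for *EGR1*. The other sums were 217 and 488 TPM in WB GOM, 512 TPM in WB ULB replicate 2, 553.5 TPM in BM GOM replicate 1 and 319 TPM in BM ULB. BM GOM replicate 2 is the library with the most liver marker RNA, and WB ULB replicate 1 the one with skeletal muscle marker RNA. The part of these tissues in the values was not tested.

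The replicates of BM GOM, which share breed, depot, age and farm, differed more in these genes than most genes did. All 8 genes were higher in replicate 1, 7 of them by more than 1 on log2(CPM + 1) after TMM, where 10% of 13560 genes with a mean TPM of at least 1 were that much higher in replicate 1. In CPM before TMM, *EGR1* was 26.8-fold higher in replicate 1, *NR4A1* 12.1-fold, *FOS* 5.59-fold, *EGR2* 4.22-fold, *FOSB* 2.67-fold and *ATF3* 2.31-fold. *EGR3* was at least 19.9-fold higher, with the 3-count floor of replicate 2 as the base. *JUNB*, at 1.23-fold, was the exception. With 1 pig per library, no test applies to this difference.

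In WB GOM, 4 of the 8 genes lay more than 1 apart, against 9.85% of all genes, but not in the same direction. *FOS*, *EGR1* and *FOSB* were 3.53-fold, 3.32-fold and 2.91-fold higher in replicate 2, whereas *NR4A1* was 3.56-fold higher in replicate 1. In WB ULB, 2 of 8 lay that far apart, against 5.91%, namely *FOSB* (5.82-fold higher in replicate 1) and *FOS* (2.41-fold). The median difference of the 8 genes between replicates 1 and 2 was -0.45 in WB GOM, 0.72 in WB ULB and 1.95 in BM GOM, beside -0.01, -0.01 and -0.05 over all genes.

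**Figure D2:**
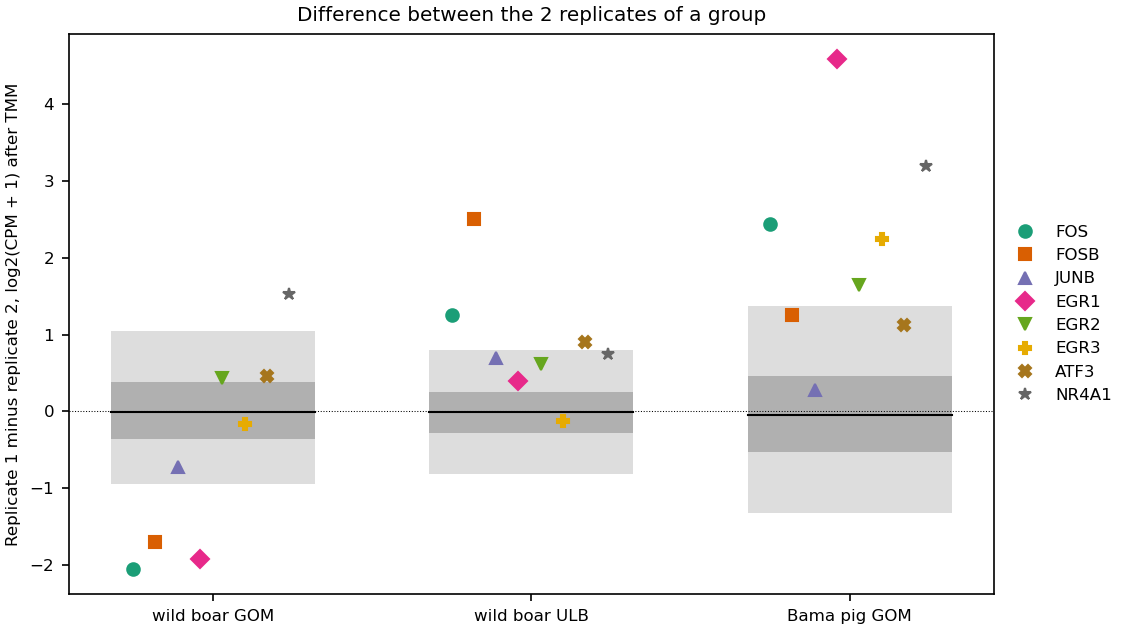
Difference between replicate 1 and replicate 2 on log2(CPM + 1) after TMM (vertical axis) for the 8 genes (symbols) in the 3 groups with 2 libraries. The light and dark bands hold the central 90% and 50% of 13560 genes and the line their median; all 8 symbols lie above 0 in BM GOM, between 0.28 and 4.59, while WB GOM has them on both sides of 0.

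To ask whether the breeds differed in the visceral depot, the 2 WB and 2 BM GOM libraries were tested by edgeR (quasi-likelihood). None of the 8 genes was called, that is, had an adjusted p below 0.05 and a log2 fold change beyond 1 in either direction, and 0.0241% of 16615 genes were. At an unadjusted p below 0.05 there was 1 of the 8, *JUNB*, against 8.0% of all genes. DESeq2 called 0 of the 8, and 167 of all 16615 genes. The log2 fold changes (WB over BM) were positive for 5 genes and negative for 3. *JUNB* came closest, at 1.11 (SE 0.40, adjusted p = 0.616 from edgeR), followed by *FOSB* at 1.34 (SE 0.70, adjusted p = 0.631 from edgeR). *FOS* stood at 1.15 (SE 0.87), *NR4A1* at 0.71 (SE 0.97) and *ATF3* at 0.55 (SE 0.49). The EGR genes leaned the other way, with *EGR1* at -1.13 (SE 1.20), *EGR2* at -0.71 (SE 0.77) and *EGR3* at -2.45 (SE 1.59).

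The lean of the EGR genes rested on 1 library. Without BM GOM replicate 1, the log2 fold change was 2.64 for *EGR1* and 0.66 for *EGR2*, and that of *FOS* and *NR4A1* was 2.86 and 3.39. *EGR3* has no fold in that setting, since the remaining BM GOM library held 0 counts and the WB GOM libraries 4 and 6. Without WB GOM replicate 2, *FOS* turned to -0.27, and *NR4A1* turned to -0.29 without WB GOM replicate 1 and to -0.16 without BM GOM replicate 2. *JUNB*, *FOSB* and *ATF3* stayed above 0 whichever library was left out, at 0.65 to 1.43, 0.14 to 2.20 and 0.09 to 1.26. *JUNB* was also the only one of the 8 with both WB GOM libraries above both BM GOM libraries on CPM after TMM, which held for 19.7% of all genes. On simulated data of this size, 93.5% of genes with an 8-fold change and 42.3% of those with a 4-fold change were recovered. Of the calls, 7.79% and 8.79% were false. Only well counted genes were given a change, so these rates do not cover *EGR3*. They are means over such genes and need not hold for a gene with a wide spread between replicates, such as *EGR1*. Smaller differences may go unseen.

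Over both depots, with depot as a covariate, the 4 WB libraries were set against the 3 BM libraries. None of the 8 genes was called by edgeR, where 0.42% of 17877 genes were. At an unadjusted p below 0.05 there were 2 of the 8, *JUNB* and *EGR3*, against 21.6% of all genes. DESeq2 called 1 of the 8, and 1157 of all 17877 genes. *JUNB* was 1.57 higher in WB on the log2 scale (SE 0.36, adjusted p = 0.0787 from edgeR). It passed the threshold with DESeq2 (adjusted p = 0.00124), without a filter on low values (adjusted p = 0.024 from edgeR) and with limma-voom and correlated pigs (adjusted p = 0.0493). Over all alternatives it lay between 1.11 and 1.87. The limma-voom fit put the correlation within pigs at -0.134, and a value below 0 makes a breed test less strict. All 4 WB libraries were above all 3 BM libraries for *JUNB* alone of the 8, as for 1.06% of all genes in TPM and 4.96% on CPM after TMM. *FOS* stood at 1.45 (SE 0.66, adjusted p = 0.233 from edgeR) and stayed between 0.85 and 2.37. *EGR3* stood at -2.41 (SE 1.00, adjusted p = 0.202 from edgeR) and lay between -2.89 and -0.95 over all alternatives, with -0.95 without BM GOM replicate 1 (adjusted p = 0.742 from edgeR).

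The other members were not called either. *FOSB* was at 0.96 (SE 0.61), *ATF3* at 0.71 (SE 0.36), *EGR1* at -0.80 (SE 0.82), *EGR2* at -0.29 (SE 0.54) and *NR4A1* at 0.01 (SE 0.69). Without BM GOM replicate 1, *EGR1* turned to 0.91 and *EGR2* to 0.50. Without BM GOM replicate 2, 2 of the 8 genes were called, *JUNB* at 1.59 (adjusted p = 0.0399 from edgeR) and *EGR3* at -2.89 (adjusted p = 0.0186 from edgeR), in a fit that called 1805 of all genes rather than 75. Without WB GOM replicate 1, *JUNB* was called at 1.87 (adjusted p = 0.0463 from edgeR). In this comparison over all libraries, 4 of 4 red cell markers were above 0. Of these, 1 was called higher in WB, *ALAS2* at 3.38 on the log2 scale (SE 0.60, adjusted p = 0.0479 from edgeR). Of 5 liver markers, 2 were called lower in WB and 1, *APOA1*, was above 0, at 0.39. Those called were *ALB* at -5.66 (SE 0.53, adjusted p = 0.00298 from edgeR) and *FGB* at -4.14 (SE 0.55, adjusted p = 0.0159 from edgeR). The part of these cells in the breed values was not tested.

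**Figure D3:**
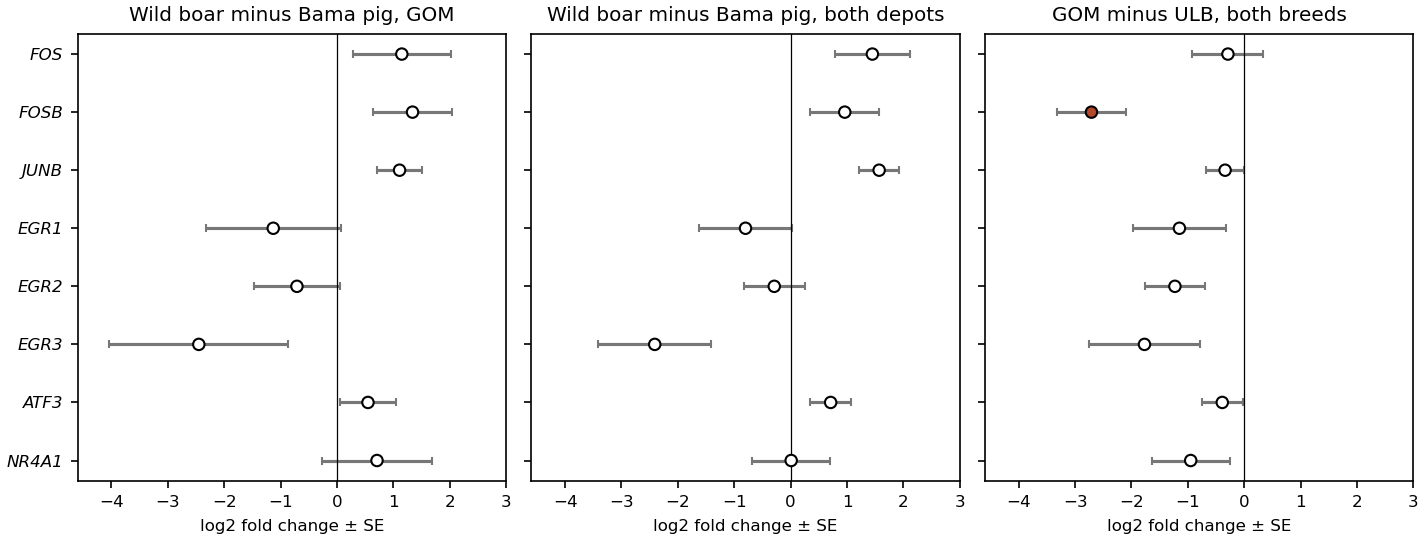
Log2 fold change (horizontal axis) of the 8 genes (vertical axis) in 3 comparisons with edgeR, with bars of 1 standard error. A filled point passed both thresholds; this is *FOSB* in the depot comparison, at -2.71, where all 8 points lie below 0.

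Between depots, with breed as a covariate, *FOSB* was called, as were 3.58% of 17877 genes, with 1.29% called lower in GOM. It fell by 2.71 in GOM on the log2 scale (SE 0.61, adjusted p = 0.0392 from edgeR). All 8 genes had a log2 fold change below 0 (GOM over ULB), with a median of -1.05, whereas 51.1% of all genes were above 0 and their median was 0.02. *EGR3* stood at -1.77 (SE 0.99), *EGR2* at -1.23 (SE 0.53), *EGR1* at -1.15 (SE 0.82) and *NR4A1* at -0.95 (SE 0.69). *ATF3* at -0.39 (SE 0.36), *JUNB* at -0.34 (SE 0.34) and *FOS* at -0.29 (SE 0.63) lay about 1 standard error or less from 0. *FOS* turned to 0.14 without WB GOM replicate 1 and to 0.18 without WB ULB replicate 1, and the other 7 genes stayed below 0 in each of these refits.

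The call of *FOSB* depended on the setting. It was kept with DESeq2 (adjusted p = 8.97e-05), with upper-quartile normalization and without a filter, but lost with limma on log2(TPM + 1) (adjusted p = 0.0833). It was also lost without any 1 of 5 libraries, at -2.47 without WB GOM replicate 1, -2.11 without WB ULB replicate 1, -2.90 without BM GOM replicate 1, -2.46 without BM GOM replicate 2 and -2.39 without BM ULB replicate 2, where the adjusted p from edgeR ran from 0.0685 to 0.249. Within WB alone, it was -2.40 (adjusted p = 0.188 from edgeR). With BM ULB as 1 library, the depot difference within BM has no replicate check.

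Libraries of the same breed and replicate number were next compared between depots, since they may be from the same pig. On log2(CPM + 1) after TMM, GOM was lower than ULB for 7 of 8 genes in WB 1, for 6 of 8 in WB 2 and for 7 of 8 in BM 2, where 45.9%, 44.2% and 44.3% of all genes were lower. It was lower by more than 1 for 5 of 8 genes in WB 1 (6.94% of all genes), for 1 of 8 in WB 2 (5.14%), which was *EGR2*, and for 6 of 8 in BM 2 (11.5%). The exceptions were *NR4A1* in WB 1 (47.8 against 47.3 CPM), *FOS* (462 against 253 CPM) and *FOSB* (40.7 against 39.3 CPM) in WB 2, and *JUNB* in BM 2 (28.7 against 24.1 CPM). With pig as a block, 3 of the 8 genes were called lower in GOM with edgeR, *FOSB* at -2.95 (adjusted p = 0.0448), *EGR1* at -2.68 (adjusted p = 0.0213) and *EGR2* at -1.73 (adjusted p = 0.0329), in a fit that called 4.44% of all genes, 1.45% lower in GOM. BM GOM replicate 1, which has no ULB partner, carries no weight for depot in that fit. The sources do not state that a number names the same pig in both depots.

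In the wild boars alone, the depots did not overlap for 4 of the 8 genes on CPM after TMM, with both GOM libraries below both ULB libraries for *JUNB*, *EGR1*, *EGR2* and *EGR3*, as for 23.7% of all genes. Of the macrophage markers, 5 of 5 were above 0 in the depot comparison and 0 were called by edgeR, with a median log2 fold change of 1.39 and summed levels of 425 to 1139 TPM in GOM and 306 to 378 TPM in ULB. Called higher in GOM by edgeR were 2 of 2 mesothelial markers, the neutrophil marker *S100A8* (3.42, adjusted p = 0.0109) and the lymphocyte marker *CD2* (1.70, adjusted p = 0.0278). The share of these cells in the depot values was not tested.

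No gene of the 8, and none of 17877 genes (0.0%), was called in the test of whether the breed difference itself differed between depots. At an unadjusted p below 0.05, edgeR found 869 genes (4.86%), none of them among the 8, and DESeq2 called 52 genes and limma on log2(TPM + 1) 293. The log2 interaction of *JUNB* was -1.19 (SE 0.61, adjusted p = 0.97 from edgeR). *JUNB* was lower in GOM than in ULB in WB, while in BM the ULB library was the lowest of all, but this contrast did not pass the test.

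The 8 genes tended to move together across libraries. The median Pearson's r of log2(TPM + 1) over the 28 pairs was 0.642, with 27 pairs above 0, against a median of 0.182 over all pairs of 17877 genes. Of the 28 pairs, 8 were above 0.7, and so were 11.7% of all pairs. These are 7 libraries from 4 pigs, with shared depth, breed and depot, so r is given as a description only. The closest pairs were *EGR1* with *EGR3* (0.836), *EGR1* with *EGR2* (0.822), *FOS* with *JUNB* (0.783) and *EGR2* with *ATF3* (0.779). *JUNB* stood apart from *EGR3* (-0.292) and from *NR4A1* (0.037), and its median r with the other 7 genes was 0.31, the lowest of the 8, while *EGR2* had the highest, 0.722.

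The co-variation was also computed on residuals. After removing the additive mean effects of breed and depot, the median r was 0.59 (0.185 over all pairs), with 26 of 28 pairs above 0, 6 of 28 above 0.7 beside 17.2% of all pairs, and with *EGR2* and *ATF3* at 0.964, *FOS* and *EGR1* at 0.902 and *EGR1* and *EGR3* at 0.897. With Spearman's rho, the median was 0.554 (0.179 over all pairs), and on log2 CPM after TMM it was 0.708 (0.0 over all pairs). Without BM GOM replicate 2, which was lowest for 6 of the 8 genes, the median fell to 0.345 with 23 pairs above 0, beside 0.165 over all pairs. In that setting, 4 of 28 pairs were above 0.7, beside 14.2% of all pairs. Without any other 1 library, the median r of the 8 genes lay between 0.531 and 0.679.

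**Figure D4:**
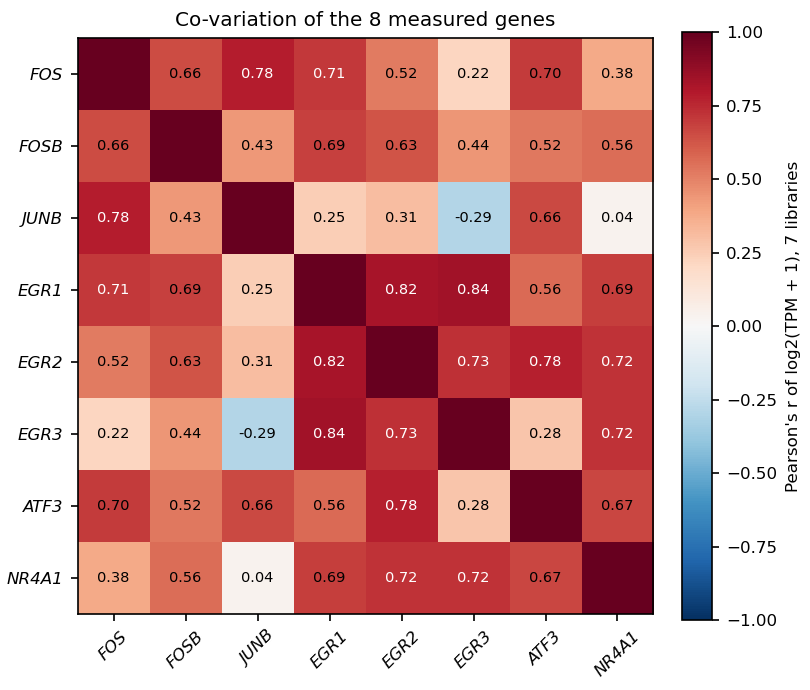
Pearson's r of log2(TPM + 1) over 7 libraries between each pair of the 8 genes, as colour (red, above 0; blue, below 0) and number. Rows and columns are genes; of 28 pairs, 27 are above 0, and the pair of *JUNB* and *EGR3* is at -0.292.

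A mean z-score of the 8 genes ordered the libraries as WB ULB replicate 1 (1.00), BM GOM replicate 1 (0.57), WB ULB replicate 2 (0.37), BM ULB replicate 2 (0.18), WB GOM replicate 2 (-0.35), WB GOM replicate 1 (-0.46) and BM GOM replicate 2 (-1.32). Of 11509 other genes with a symbol and a mean TPM of at least 1, 8 genes (0.0695%) followed this score with r above 0.9 over the 7 libraries. Another 21 genes ran against it, with r below -0.9. The 8 genes above 0.9 were *KLF4* (0.954), *SYN2* (0.941), *NTRK2* (0.934), *ZMAT2* (0.932), *TXLNB* (0.927), *HOXD9* (0.921), *CXCL2* (0.914) and *GPX7* (0.907). *KLF4*, itself an immediate early zinc finger factor, was at 39.5 and 43.1 TPM in WB GOM, 76.5 and 54.5 TPM in WB ULB, 60.4 and 33.9 TPM in BM GOM and 63.6 TPM in BM ULB. *CXCL2*, a neutrophil chemokine that is also rapidly induced, was at 44.7 and 25.2, 84.1 and 63.2, 65.6 and 20.65, and 67.4 TPM in the same order. All 8 named genes were lowest in BM GOM replicate 2 and highest in WB ULB replicate 1. These libraries are the ends of the score by which the genes were picked, so this follows from the choice.

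The neighbours of these genes in the pathway were described by lists. Of 13 other immediate early transcription factors measured, edgeR called 0 in any of the 3 comparisons, with 12 above 0 (WB over BM) in GOM, 9 over both depots, and 4 above 0 for GOM over ULB, where all genes had 49.2%, 47.6% and 51.1% above 0. *CSRNP1* was at 1.26 (adjusted p = 0.0773 from edgeR) and *MAFF*, a small bZIP partner, had an adjusted p of 0.1 from edgeR (11.7 to 18.6 TPM in BM, 20.5 to 59.3 TPM in WB) in the breed comparison over both depots. DESeq2 called both (adjusted p = 0.00316 and 0.0068), as did edgeR without a filter on low values (0.036 and 0.0394). The median r of this list with the mean z-score, over the 12 of its genes that were ranked, was 0.41, against -0.08 over all ranked genes.

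Of 15 signal-induced feedback regulators, which shut the same signals off, 1 was called higher in WB over both depots, where 0.123% of all genes were. This was *DUSP1*, the phosphatase that removes the activating phosphates of MAP kinases. Its TPM was 388 and 514 in WB GOM, 565 and 682 in WB ULB, 242 and 156 in BM GOM and 136 in BM ULB. All 4 WB libraries were above all 3 BM libraries in TPM, as for 1.06% of all genes. The log2 fold change was 1.92 (SE 0.31, adjusted p = 0.0323 from edgeR), between 1.59 and 2.09 under all alternatives. The call was lost with limma on log2(TPM + 1) (adjusted p = 0.111), and with edgeR without WB GOM replicate 2, either WB ULB library or BM ULB replicate 2 (adjusted p from 0.0835 to 0.338). Of the 15, 13 were above 0 in that comparison, with a median of 0.55.

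All 8 growth and matrix early genes, mostly targets of SRF in wounded tissue, were above 0 in both breed comparisons, with medians of 0.65 in GOM and 1.13 over both depots, and edgeR called 0. *CCN2*, a matrix protein induced by stretch, was at 1.5 (SE 0.47, adjusted p = 0.134 from edgeR) and was called by DESeq2 (adjusted p = 0.0207). *THBS1*, thrombospondin, had 109 and 102 TPM in WB GOM, 565 and 1919 TPM in WB ULB, 215 and 71.5 TPM in BM GOM and 137 TPM in BM ULB, with a depot value of -2.31 (adjusted p = 0.117 from edgeR). It was called lower in GOM by DESeq2 (adjusted p = 0.000603), and by edgeR without a filter, without BM GOM replicate 1, with pig as a block (adjusted p = 0.00909) and in WB alone (adjusted p = 0.0454). This list had the highest median r with the mean z-score among the lists of response genes, 0.67. Of 8 early inflammatory genes, edgeR called 0, and *IL6* stood at -1.62 for GOM over ULB (adjusted p = 0.0793 from edgeR), with 4.42 and 9.43 TPM in WB GOM, 32.4 and 24.2 TPM in WB ULB, 10.9 and 5.70 TPM in BM GOM and 16.2 TPM in BM ULB. *IL6* was called by DESeq2 (adjusted p = 0.00756) and by edgeR without a filter (adjusted p = 0.0432). *NFKBIZ*, an inducible regulator of NF-κB, was at 0.81 for breed.

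Of 12 upstream kinases and factors, edgeR called 0, and their medians lay between -0.40 and -0.07. *RPS6KA1*, a kinase downstream of ERK, was at 1.11 for depot (adjusted p = 0.0663 from edgeR), and *MRTFB*, an actin-controlled partner of SRF, at -1.25 for breed (adjusted p = 0.189 from edgeR). With each library left out, *MRTFB* ran from -1.64 to -0.37, and its highest level was in BM GOM replicate 1 (108 TPM). *RPS6KA1* was called by DESeq2 (adjusted p = 0.0174) and by edgeR without a filter, and *MRTFB* by edgeR without BM GOM replicate 2 (adjusted p = 0.0239).

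Lists for other stimuli were set beside the 8 genes because handling before sampling can reach them as well. Of 10 heat shock genes, edgeR called 0, 8 were above 0 for breed over both depots, and 10 of 10 were above 0 for GOM over ULB (median 0.70), opposite to the 8 immediate early genes. *HSPE1* and *DNAJB1*, which are chaperones, were at 1.51 (adjusted p = 0.134 from edgeR) and 0.92 (adjusted p = 0.159 from edgeR) for breed, and *HSPE1* was called by DESeq2 (adjusted p = 0.0207) and by edgeR without BM GOM replicate 2 (adjusted p = 0.0258). Of 7 glucocorticoid-responsive genes, edgeR called 0 and 6 were above 0 for breed, among them *CEBPD* at 2.94 (SE 0.59, adjusted p = 0.066 from edgeR) and *SGK1* at 0.78. *CEBPD*, an early adipogenic factor, had 314 and 663 TPM in WB GOM, 193 and 577 TPM in WB ULB, 149 and 182 TPM in BM GOM and 17.8 TPM in BM ULB. It was called higher in WB by DESeq2 (adjusted p = 5.61e-07), by limma-voom with correlated pigs (adjusted p = 0.0345), and by edgeR without a filter, without WB GOM replicate 1 or without BM GOM replicate 2. Of 7 hypoxia-responsive genes, edgeR called 0, with *ADM* at 1.21 for breed (adjusted p = 0.0638 from edgeR) and *NDRG1* at 1.21 for depot (adjusted p = 0.0684 from edgeR). Both were called by DESeq2 (adjusted p = 0.000188 and 0.0095) and by edgeR without a filter or without BM GOM replicate 2, and *ADM* also by limma-voom with correlated pigs (adjusted p = 0.0345). The median r of these lists with the mean z-score was -0.06, 0.27 and 0.07. The methods state that fasted pigs were slaughtered and the tissue frozen at once, and the sources used here give no time per pig or depot, so the part of handling in these values was not tested.

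Chromatin at the 10 genes, including *JUN* and *IER2*, was read from Hi-C values. The deposited value per bin of 20 kb is labelled as an A-B index, which the paper defines otherwise than PC1. It was read here as a PC1 score, which it resembles in range. Its sign was taken to separate the open A compartment (above 0) from the closed B compartment. At the bin of the annotated start, 9 of the 10 genes were above 0 in all 7 libraries, as were 78.5% of 13093 genes placed on autosomes and 83.2% of those with a mean TPM of at least 1. The median PC1 was 51.5 for the 10 genes and 29.4 over all placed genes. *EGR1* ranged from 59.9 to 87.6, *JUNB* from 55.9 to 72.1, *FOSB* from 61.4 to 69.2 and *FOS* from 49.1 to 57.1.

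*EGR2* was the exception and lay near the border. Its PC1 was 7.13 and 11.05 in WB GOM, 14.1 and 11.6 in WB ULB, 5.27 and -0.19 in BM GOM and 13.4 in BM ULB, so the single value below 0 was that of BM GOM replicate 2. *EGR2* RNA was 1.345 TPM in that library but lowest in WB GOM replicate 2 (1.094 TPM), at a PC1 of 11.05. In BM GOM replicate 1 it was 6.11 TPM at a PC1 of 5.27. *JUN* was the other gene below the median of all genes, at 16.1 to 24.5. For *FOS*, the lowest PC1 was 49.1 in BM ULB and the highest 57.1 in WB GOM replicate 2, in which *FOS* RNA was 93.4 and 319.6 TPM, but the highest RNA level, in WB ULB replicate 1, met a PC1 of 53.3. The 28.9-fold range of *EGR1* RNA within BM GOM had no counterpart in PC1, which was 59.9 in replicate 1 and 68.9 in replicate 2.

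**Figure D5:**
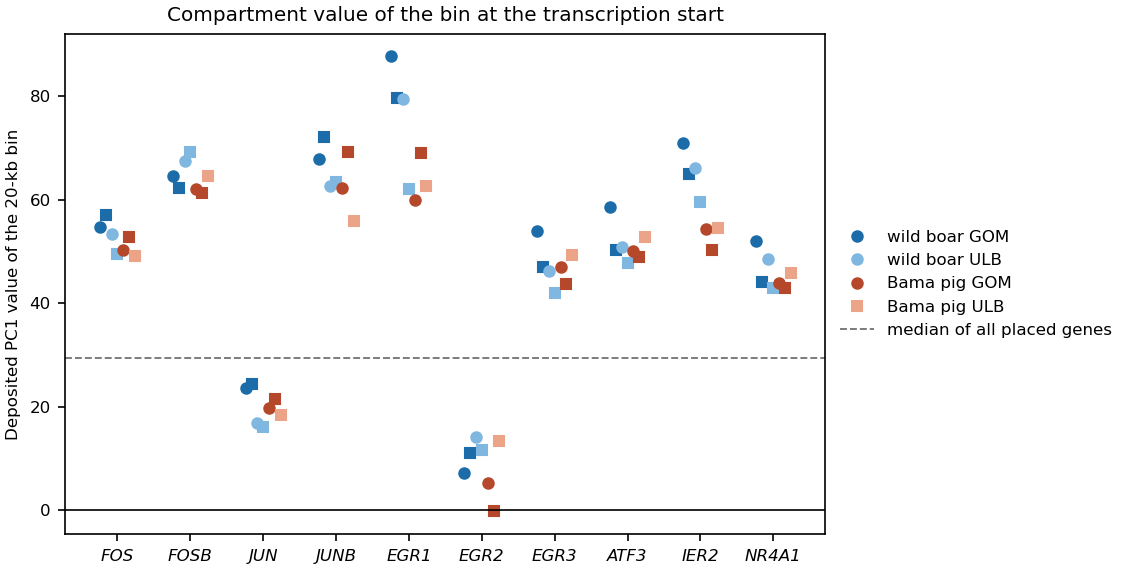
Deposited compartment value, read as PC1 (vertical axis), of the 20-kb bin that holds the annotated start of each of the 10 genes (horizontal axis). Each point is 1 library (circles for replicate 1, squares for replicate 2), coloured by group. The dashed line is the median of all placed genes, 29.4; only *JUN* and *EGR2* lie below it, and *EGR2* reaches -0.19 in BM GOM replicate 2.

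The median distance to a boundary of a topologically associating domain (TAD), a block of preferred contacts, was similar for the 10 genes and all placed genes. It was 83.6 kb (83.7 kb over all placed genes) in BM GOM and 78.0 kb (77.2 kb) in BM ULB. In WB it was 78.0 kb (79.7 kb) in GOM and 74.6 kb (76.0 kb) in ULB. Within 40 kb of a boundary there were 1 of 10 genes in BM GOM, 1 in BM ULB, 1 in WB GOM and 2 in WB ULB, where 30.1%, 32.2%, 31.3% and 32.5% of all placed genes were, and 0 of 10 lay within 20 kb. *JUNB* and *IER2*, neighbours on chromosome 2, shared 1 TAD of 440 kb (chr2:65840001-66280000) in all 4 lists. The TAD of *FOS* measured 380 kb in BM GOM and 160 kb in the other 3 lists, and that of *ATF3* measured 920 kb in WB GOM and 500 kb in the others. The TADs were called on pooled replicates, so these differences have no replicate check. By the paper's methods, the BM ULB pool also held a Hi-C library from an earlier study, which was not used here.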

How the data were processed

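RNA-seq (7 libraries, ribosomal RNA depleted, stranded) and Hi-C (7 libraries) were analysed. The authors deposited estimated counts and TPM per gene, made with kallisto (0.43.0 in the submitters' processing notes) against Sscrofa 11.1 and Ensembl genes. The authors also deposited a compartment score per 20-kb bin, labelled as an A-B index and read here as PC1, and TAD lists on pooled replicates. No column of per-sample values was left out.

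Counts were rounded and tested with edgeR 4.0.16 (glmQLFTest, TMM, two-sided, Benjamini-Hochberg over all genes tested) in R 4.3.3. Genes needed a TPM above 0.1 in every library of 1 group. Genes were called at an adjusted p under 0.05 with a log2 fold change beyond 1 either way. DESeq2 1.42.0 and limma 3.58.1 were alternatives. Markers and list genes were named by smallest p, at most 4 a list and comparison, or 2 where none passed. The genes, lists and tests were chosen with earlier results of these data known. Replicates are separate pigs within a depot, but by the paper's methods both depots were taken from the same 4 pigs. Only the matching of replicate numbers between depots is not stated. The p-values over both depots can then be too small for breed and too large for depot. Correlations used log2(TPM + 1). Floors (3 counts) cover counting error only.

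Positions and sequences are from RefSeq Sscrofa11.1, whose 18 autosomes have the lengths of those in the Hi-C tables. For motifs, PC1 and TADs, the outermost annotated start of a gene was used. Other starts were not read, which are spread over 44172 bases for *ATF3* and 2658 bases for *EGR2*. In simulated counts of 17877 genes, of which 200 well counted ones differed 4-fold, edgeR recovered 85.8% for breed and 86.8% for depot. Python 3.11.15, numpy 2.4.6, pandas 2.3.3 and matplotlib 3.10.9 were used.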

Additional observations from a re-analysis of the deposited data

How the results depend on the processing

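Limits. With 7 libraries of 4 pigs, 1 library could decide a direction, and the low counts of *EGR3* and the single BM ULB library limit what can be seen. The cause of the changes below was not tested, except that left-out libraries leave fewer samples. The number of genes called in the GOM breed comparison was 4, and it was 167 with DESeq2, 26 without a filter on low values, 0 with limma on log2(TPM + 1) and 15 with the replicate number as a block, and 0 to 123 with each library left out. Over both depots, 75 genes were called for breed, against 1157 with DESeq2, 503 without a filter, 49 with a mean TPM of at least 1, 35 with limma and 216 with limma-voom and correlated pigs, and 1 to 1805 with each library left out. Of the 8 immediate early genes, 1 was called for breed with DESeq2, without a filter and with limma-voom, and 0 to 2 with each library left out. For depot, 640 genes were called, against 1399 with DESeq2, 999 without a filter, 329 with limma on log2(TPM + 1), 793 with pig as a block, 318 in WB only and 1623 in WB only with the replicate block, and 230 to 656 with each library left out. Of the 8 genes, 0 were called for depot with limma, 3 with pig as a block, 0 in WB only and 3 in WB only with the block, and 0 to 1 with each library left out. The last of these settings was chosen after seeing the data. The interaction called 0 genes, against 52 with DESeq2, 7 without a filter and 293 with limma, and 0 to 1 with each library left out. It could not be fitted without BM ULB replicate 2. *NR4A1* for breed over both depots turned from 0.01 to 0.0 with DESeq2, -0.12 with upper-quartile normalization and -0.08 with a mean TPM of at least 1, and to -0.62 without WB GOM replicate 1 and -0.58 without BM GOM replicate 2. With each library left out, it ran from -0.62 to 0.71. The other values that turned did so with a library left out, as given beside the results. Those in the GOM breed comparison ran from -0.27 to 2.86 (*FOS*), -2.49 to 2.64 (*EGR1*), -1.38 to 0.66 (*EGR2*), -3.42 to 5.39 (*EGR3*, where the upper value is set against a library with 0 counts and is no measured fold) and -0.29 to 3.39 (*NR4A1*), those for breed over both depots from -1.34 to 0.91 (*EGR1*) and -0.71 to 0.5 (*EGR2*), and that for depot from -0.9 to 0.18 (*FOS*). The median r of the 8 genes ran from 0.345 to 0.679 with each library left out. Within 20 kb of a TAD boundary lay 0 of the 10 genes in each list.

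For pairing, the deviations of same-numbered libraries from their group means correlated at 0.154 between the depots of WB, at 0.15 between WB and BM GOM and at -0.093 between WB ULB and BM GOM over 17877 genes. The numbers are thus not shown to pair the libraries, and the fits without a block were kept. In the GOM breed comparison, the replicate block called 0 of the 8 genes, with *JUNB* at 1.06 (adjusted p = 0.405 from edgeR).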
